A study of Mus musculus with 2 samples.

Results

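The Krüppel-like factors described here are 8 genes, Klf2, Klf3, Klf4, Klf6, Klf7, Klf9, Klf10 and Klf13, of 12393 genes that the array names. They were chosen by gene symbol: every probe set whose annotation gives exactly 1 of these symbols was taken, which gave 24 of 20380 probe sets. The choice of these 8 from the family was made with earlier results of the same arrays known, so levels and differences are given as a description. The cells were B cells sorted by flow cytometry from mouse spleen for surface IgM together with IgD, with no genetic modification (SRF Wt.). The series was designed to set such cells against cells deficient in SRF, serum response factor, which activates immediate early genes and genes of the actin cytoskeleton. Replicates 1 and 2, the 2 samples at hand, are both wild-type, and srf-deficient samples were not analysed here. The labels give no strain, age or sex, do not call the cells resting, and do not say whether the replicates are separate mice. Sex-linked signals, given below, differed between the replicates. With 2 samples of 1 group no test was possible, and each difference below is one between 2 arrays.

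Krüppel-like factors are transcription factors with C-terminal C2H2 zinc fingers that bind GC-rich DNA, the GC box and the CACCC box, as do the related Sp factors. Members differ in the parts outside the fingers: some recruit corepressors of the CtBP or Sin3 type and others recruit acetyltransferases. In lymphocytes the family is known for quiescence and homing. Klf2 maintains the resting state and the expression of receptors for exit from lymphoid organs, and Klf4 restrains proliferation.

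Values are MAS5 signals, which are linear and scaled so that both arrays have the same trimmed mean. A signal was called above the floor if it exceeded the 90th percentile of 93 probe sets for 65 genes typical of organs such as liver, testis or lens. This floor was 185 on replicate 1 and 86.6 on replicate 2. A higher signal for 1 probe set than for another does not mean more RNA, since affinity varies between probes. In a bulk sample fewer expressing cells and less RNA per cell cannot be told apart. Of 17 measured B cell genes, 16 cleared the floor in both samples, and so did markers of 8 other cell types in 5 of 63: Zap70, Csf1r, Lyz2, Ngp and S100a9. The B cell gene that did not was Pax5, with 21.5 on replicate 1 and 15.6 on replicate 2. By the brightest probe set, 12 of the 16 lay within 2-fold and 3 were over 2-fold higher on replicate 2. The remaining 1, Cd79a, was higher on replicate 1, with 2931 and 192. The arrays stood apart in several ways. Xist gave 1025 on replicate 1 and 5.70 on replicate 2, while the Y-linked Eif2s3y gave 3.40 and 249. A difference in sex between the samples, which these signals would mark, cannot be told apart from other differences between the 2 arrays. The ratio of 3′ to 5′ signal was 3.57 on replicate 1 and 8.15 on replicate 2 for the Actb control, and 1.31 and at least 9.52 for Gapdh, whose 5′ signal on replicate 2 was below the floor and was set to it. The part of these differences in the values below was not tested.

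The promoters of 4 members are shown because their genes differed by over 2-fold between the arrays: Klf2, Klf4 and Klf6 were higher on replicate 1, and Klf13 on replicate 2. Each sequence is the 250 bases before the RefSeq start on GRCm38.p6, 5′ to 3′ on the strand of the gene. They lie at chr8:72318812-72319061 on the plus strand (Klf2), chr4:55532476-55532725 on the minus strand (Klf4), chr13:5861239-5861488 on the plus strand (Klf6) and chr7:63938916-63939165 on the minus strand (Klf13). Capitals mark GC boxes (GGGCGG) and CACCC boxes on either strand, the motifs that the family itself binds, and a MEF2 element in Klf2.
Klf2: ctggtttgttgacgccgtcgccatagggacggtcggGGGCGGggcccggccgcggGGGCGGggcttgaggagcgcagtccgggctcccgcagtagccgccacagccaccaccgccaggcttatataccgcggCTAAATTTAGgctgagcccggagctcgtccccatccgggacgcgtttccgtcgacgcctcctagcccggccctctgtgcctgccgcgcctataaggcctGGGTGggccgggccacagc
Klf4: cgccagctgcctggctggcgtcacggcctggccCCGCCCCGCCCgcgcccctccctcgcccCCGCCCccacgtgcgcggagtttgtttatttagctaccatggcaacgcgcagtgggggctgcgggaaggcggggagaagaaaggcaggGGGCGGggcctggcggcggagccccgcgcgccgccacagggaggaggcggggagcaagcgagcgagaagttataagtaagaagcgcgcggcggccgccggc
Klf6: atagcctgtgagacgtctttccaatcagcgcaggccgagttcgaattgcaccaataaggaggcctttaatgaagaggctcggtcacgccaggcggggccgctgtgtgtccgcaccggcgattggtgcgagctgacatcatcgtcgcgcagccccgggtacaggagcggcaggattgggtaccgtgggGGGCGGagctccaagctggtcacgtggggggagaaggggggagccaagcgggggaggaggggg
Klf13: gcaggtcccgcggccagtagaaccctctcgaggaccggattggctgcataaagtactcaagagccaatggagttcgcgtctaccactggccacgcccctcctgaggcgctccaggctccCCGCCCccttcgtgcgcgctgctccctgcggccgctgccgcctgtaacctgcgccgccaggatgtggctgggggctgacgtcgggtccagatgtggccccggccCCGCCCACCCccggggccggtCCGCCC

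Promoter windows were found for 7 of the 8 genes, all but Klf10. The GC box was present in 6 of the 7, against 32.7% of 32851 windows of the same length, and CACCC in 5 of 7, against 52%. These motifs can overlap, as they do in Klf13. The 7 windows held from 59.2% to 78.4% G and C, against a median of 52.4% over all windows, and motifs made of G and C are more frequent in such sequence. A MEF2 element, the site of myocyte enhancer factors, was found in Klf2 alone of the 7, from 118 to 109 bases before the start, and in 0.508% of all windows. The CArG box, the site of SRF, was in 0 of 7 and in 1.47% of all windows. The cAMP response element TGACGTCA and TATAAA were each in 0 of 7, against 1.55% and 12.4%. CACGTG was in Klf4 and Klf6 (6.02% of all windows), CCAAT in Klf6, Klf9 and Klf13 (33.8%), and the AP-1 motif TGANTCA and the FoxO motif GTAAACA in Klf9 alone (6.75% and 3.17%). A match describes letters and not a bound site.

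**Figure D1:**
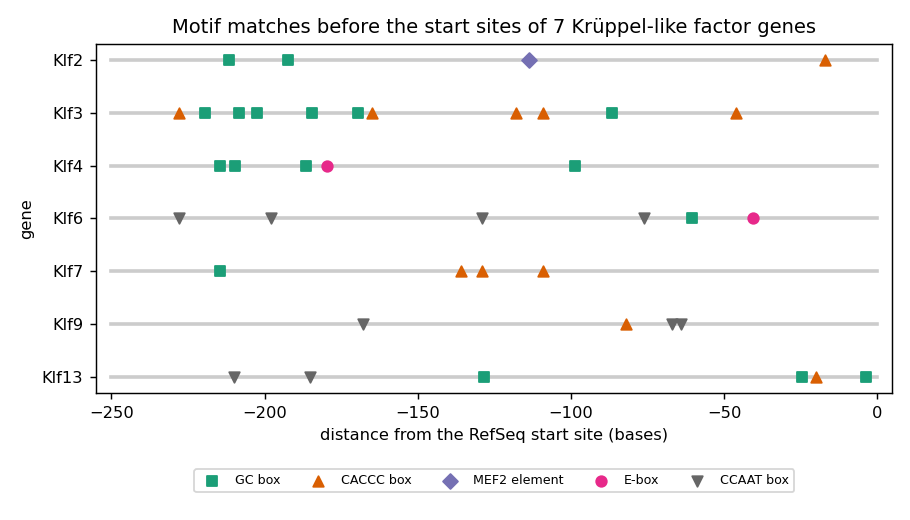
Motif matches on either strand in the 250 bases before the RefSeq start (horizontal axis, bases from the start) of the 7 Krüppel-like factor genes with a window. Each symbol is the centre of 1 match; GC boxes lie in 6 genes, the MEF2 element lies in Klf2 alone, and the E-box (CACGTG) in Klf4 and Klf6.

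Of the 8 genes, 7 cleared the floor in both samples by at least 1 probe set, where 28.4% of all genes did. The exception was Klf10. Of the 24 probe sets, 15 cleared the floor in both samples, against 22.6% of all probe sets naming 1 gene, 1 was above it on replicate 2 alone and 8 were above it on neither. The members were picked with these signals known, so nothing is read from these shares. Taking for each gene the probe set of highest mean log2 signal, replicate 1 was over 2-fold higher for 3 of the 7 (Klf2, Klf4 and Klf6), replicate 2 for 1 (Klf13), and the other 3 lay within 2-fold. Of the 3462 genes that cleared both floors by that probe set, replicate 1 was over 2-fold higher for 14.5% and replicate 2 for 14.1%. Centring each array on its median turned this split of all genes to 3.0% and 34.3%, and that of the 7 members to 2 and 1. The medians, 103 on replicate 1 and 66.6 on replicate 2, lie below the floors of 185 and 86.6. Centring thus aligns signals under the floor. The floors are themselves over 2-fold apart. A probe set at the same multiple of each therefore counts as over 2-fold higher on replicate 1 as deposited. Among those given below, 1 probe set of Klf9 and the brightest of Siah1a, Wwp1 and Tsc1 are near this case. The median difference, replicate 2 minus replicate 1 on the log2 scale, was -0.69 over the 7 genes and -0.02 over all 3462. The SD of log2 signal between samples, pooled over probe sets that cleared both floors, was 0.66, or 1.59-fold.

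**Figure D2:**
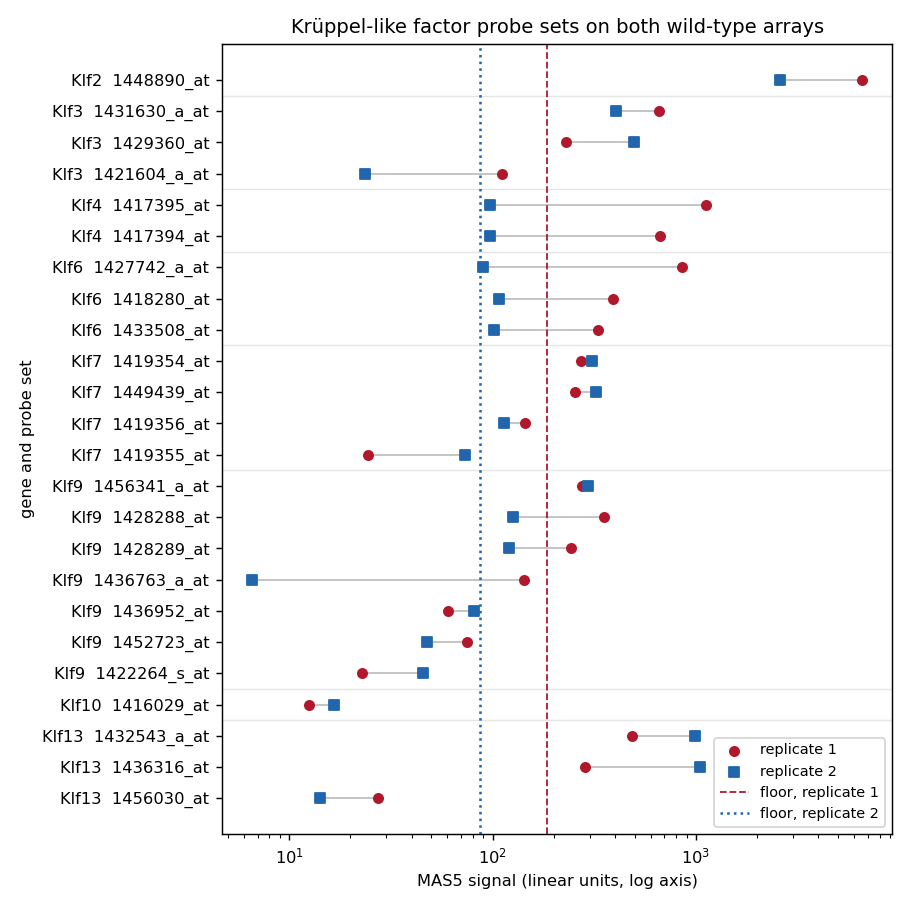
MAS5 signal (horizontal log axis) of each of the 24 Krüppel-like factor probe sets on replicate 1 (circles) and replicate 2 (squares), joined by a line, with the floor of each array as a vertical line. Klf2 stands far to the right of both floors; the Klf4 and Klf6 squares lie just right of the replicate 2 floor of 86.6, while their circles lie between 330.2 and 1119.

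Klf2, the factor of quiescence and homing, gave a strong signal in both samples. Its only probe set read 6552 on replicate 1 and 2579 on replicate 2 (mean 4566 ± 2809, SD, n = 2). These signals were 35.3 times and 29.8 times the floors of the respective arrays. Replicate 1 was the higher sample, by 2.54-fold. That difference, -1.34 on the log2 scale, ranked 217th of 3462 genes counted from the end of genes higher on replicate 1, and 77th of 3485 after quantile normalization. With both arrays centred on their medians, it was -0.71, less than 2-fold. Centring shifts every difference by the same amount. It moved the median of all genes above the floor to 0.61, and relative to that median Klf2 necessarily stayed at -1.32.

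Klf4, an antiproliferative factor that is also used to reprogram somatic cells, differed most. The brighter probe set read 1119 for replicate 1 and 97.3 for replicate 2, and the other read 665 and 96.9. Both probe sets were well over the floor on replicate 1 and just over it on replicate 2. The folds were 11.5 and 6.86, and since they divide by signals near the floor their size is uncertain. By its brighter probe set Klf4 ranked 6th of the 3462 genes from the replicate 1 end, and 6th after quantile normalization. Median centring shifts every difference by the same amount, so it can change ranks only through genes that cross the floor. With a floor at the 95th percentile of the organ-restricted probe sets, 101 on replicate 2, neither probe set of Klf4 was above it.

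Klf6, a zinc finger activator that is induced rapidly by many stimuli, followed closely. Its probe sets gave 849.7, 390.5 and 330.2 on replicate 1, and 89.9, 107 and 102 on replicate 2. All 3 were higher on replicate 1, by 9.45-fold, 3.64-fold and 3.24-fold. The brightest ranked 7th of 3462 genes from the replicate 1 end, and 7th after quantile normalization. Its signal on replicate 2 was the lowest of the 15 member probe sets that cleared both floors, and fell under the stricter floor of 101, which the other Klf6 probe sets still passed. The mean difference over the 3 probe sets was -2.27 on the log2 scale, against -3.24 for the brightest alone.

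The genes whose pair of signals was most like that of Klf4 and Klf6, by the distance over the 2 log2 signals among 3455 other genes, were the same 3 for each. They were Dusp1, a phosphatase of MAP kinases (1002 and 118 on replicates 1 and 2), Bzw2 (974 and 127) and Sqstm1, which encodes the autophagy receptor p62 (740.4 and 114). The distances ran from 0.32 to 0.64 for Klf4 and from 0.40 to 0.54 for Klf6. For Klf2 the nearest were Ccnl1, a cyclin of splicing (4395 and 2635), Hnrnpab (4972 and 1796) and Rpl11 (5188 and 3973), at 0.58 to 0.71. A likeness over 2 samples describes these arrays only.

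**Figure D3:**
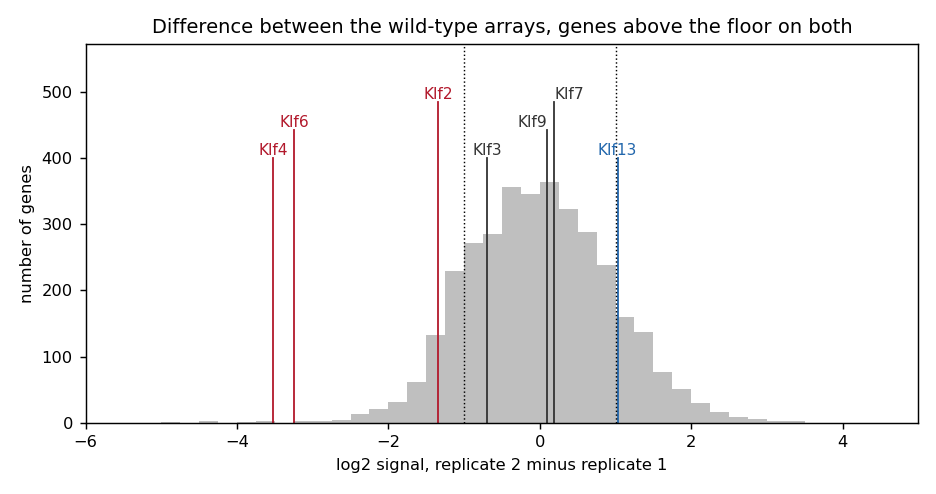
Histogram of the log2 difference, replicate 2 minus replicate 1, for the 3462 genes that cleared both floors, with the 7 Krüppel-like factors marked by labelled lines and 2-fold by dotted lines. Klf4 at -3.52 and Klf6 at -3.24 lie in the far left tail, Klf2 at -1.34 lies left of the 2-fold line, and Klf13 at 1.03 lies at the right one.

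Klf13, a factor of the Klf9 type that binds Sin3-type corepressors and is known for late induction of a chemokine gene in T cells, went the other way. Its brightest probe set read 483 for replicate 1 and 985.5 for replicate 2, and a second gave 285.5 and 1052. These were 2.04-fold and 3.68-fold higher on replicate 2, so the brightest lay barely past 2-fold. The remaining probe set, with 27.4 and 14.2, was below the floor on both arrays. The mean difference over the pair above the floor was 1.45 on the log2 scale. After quantile normalization the brightest gave 0.55, which is within 2-fold, and after median centring 1.66.

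Klf3, a repressor that binds CtBP, cleared both floors by probe sets that opposed each other. The brightest read 655 and 405 for replicates 1 and 2, a 1.62-fold excess in replicate 1, and another read 229.6 and 494, a 2.15-fold excess in replicate 2. The remaining one, with 111 and 23.5, was below both floors. No single direction can be read for this gene: the brightest gave -0.69 on the log2 scale and the mean over the pair that cleared both floors gave 0.21. The brightest gave -1.07 after quantile normalization and -0.059 after median centring.

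Klf9, a factor known for its induction by glucocorticoid and thyroid hormone, had 7 probe sets, of which 3 cleared both floors. Of these, that with the highest mean gave 275 and 293, near equal on both arrays. The others above the floor gave 352 and 126, and 244 and 121, which were 2.79-fold and 2.02-fold higher on replicate 1. The 4 remaining probe sets lay below the floor of each array, with signals from 22.9 to 143 on replicate 1 and from 6.60 to 81.5 on replicate 2. The gene was thus detected by 3 of its 7 probe sets, of which 2 showed a difference past 2-fold as deposited. These 2 gave -1.36 and -0.76 on the log2 scale after quantile normalization. After median centring they gave -0.85 and -0.38, both within 2-fold.

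Klf7, a broadly expressed member best known from neurons, lay within 2-fold by each probe set that cleared both floors. It gave 271 and 309 by its brightest probe set and 255 and 323 by another, higher on replicate 2 by 1.14-fold and 1.27-fold. The mean signals were 290.2 ± 26.9 and 289 ± 47.9 (SD, n = 2). Another probe set, with 145 and 114, cleared the floor of replicate 2 alone, and the last gave 24.4 and 72.8, below both floors. The former was lower on replicate 2 as deposited and higher there under quantile normalization and median centring.

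Klf10, a factor induced by transforming growth factor β, was not detected. Its only probe set read 12.5 for replicate 1 and 16.7 for replicate 2, where the floors were 185 and 86.6. A signal under the floor sets no level for the gene and does not show that it is absent.

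Probe sets of the same member often differed. Of 6 members with 2 or more probe sets that cleared both floors, Klf4, Klf6, Klf7 and Klf13 had a single direction over all of them, and Klf3 and Klf9 did not. Of all 796 genes with as many such probe sets, 51.3% had a single direction. The gap between the highest and lowest log2 difference of a gene had a median of 1.20 over the 6 members and 1.03 over the 796 genes. Over the 15 member probe sets above the floor, 8 showed an excess past 2-fold in replicate 1 and 3 in replicate 2, where 15.3% and 13.8% of all such probe sets did. The 8 came from Klf2, Klf4, Klf6 and Klf9, and share their genes, so they are not separate observations.

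Other Krüppel-like factors fell below the floor. Of 6 measured, Klf1, Klf5, Klf12, Klf15, Klf16 and Klf17, 0 were above it on both arrays. Klf16 came closest, with 152.5 on replicate 1 and 128 on replicate 2, the latter above the floor. Klf1, the erythroid factor, gave 101 and 5.90, and Klf12 gave 55.7 and 18.4. The epithelial Klf5 gave 140 and 67.5, and 172 and 32.4, by its probe sets. Klf15 gave 12.2 and 23.1, and Klf17 gave 96.9 and 56.1. Among 6 Sp factors, Sp1 and Sp7 were above the floor on both. Sp1, the prototype of GC box binding, gave 328 and 1155 by its brighter probe set and 113 and 104 by another, below the floor on replicate 1. Sp7, the osteoblast factor, gave 221 and 126. Sp3 gave 76.6 and 98.5, and Sp4 gave 157 and 142 by its brighter probe set and 80.0 and 131 by the other, all below the floor on replicate 1 and above it on replicate 2. Sp5, with 10.6 and 51.4, and Sp6, with 23.9 and 36.7, and 12.5 and 15.9, were below both floors.

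**Figure D4:**
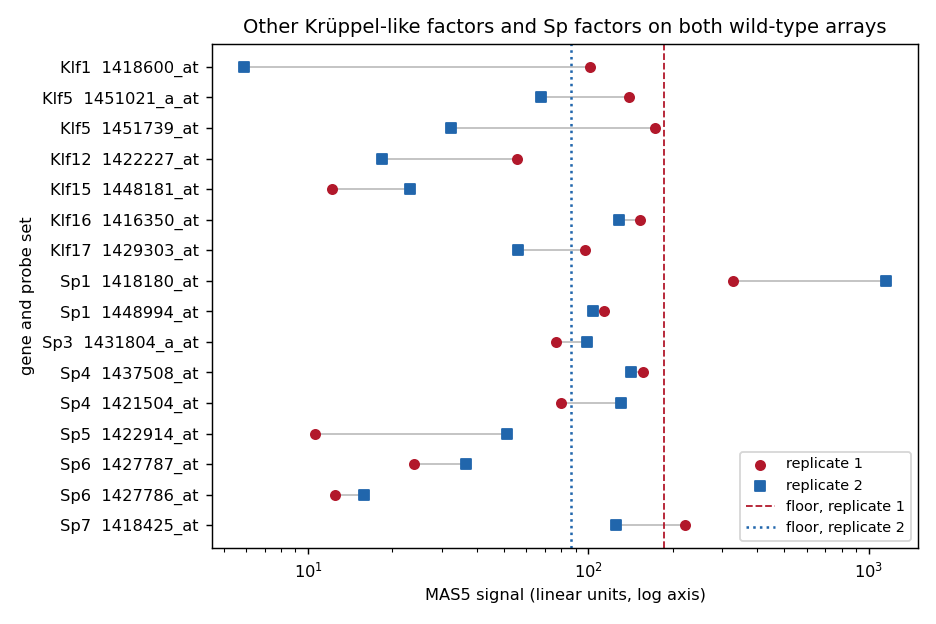
MAS5 signal (horizontal log axis) of the probe sets of 6 other Krüppel-like factors and 6 Sp factors on replicate 1 (circles) and replicate 2 (squares), with the floor of each array as a vertical line. Only 1 probe set each of Sp1 and Sp7 lies right of the respective floor on both arrays.

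Regulators known to act on Klf genes were measured in 18 cases, of which 11 cleared both floors. Of these, 0 showed an excess past 2-fold in replicate 1 and 3 in replicate 2, where 14.5% and 14.1% of all genes did, and the median difference was 0.60. Quantile normalization gave 0 and 2 with a median of 0.23, and median centring 0 and 6 with a median of 1.24. Mef2c, a MADS-box factor that drives Klf2 in other cells, gave 582 and 2125 by its brightest probe set, but another of its probe sets was lower on replicate 2, with 243 and 119. Tgfbr2, a receptor chain for transforming growth factor β, gave 877 and 1649. Smad4, its shared signal mediator, gave 362 and 922.5, with a mean log2 difference of 0.53 over its probe sets. Elk4, a partner of SRF, gave 548 and 2355 by its brightest probe set. Its other probe sets gave 130 and 110, and 119 and 93.8, below the floor on replicate 1. Map2k5 and Mapk7, the kinase cascade upstream of MEF2, gave 61.5 and 151, and 8.90 and 25.6, and were not above the floor on both. Srf itself gave 389 and 254.

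Partners through which the factors act were partly above the floor. Corepressor genes were above it in 4 of 8 cases: Ctbp1 (554 and 650.5 on replicates 1 and 2), Hdac1 (428 and 661), Sin3b (316 and 693) and Hdac3 (399 and 156). Of these Sin3b was 2.20-fold higher on replicate 2 and Hdac3 2.55-fold higher on replicate 1. Quantile normalization left 1 past 2-fold in favour of replicate 1 and 0 in favour of replicate 2, and median centring 0 and 2. The other Sin3b probe set that cleared both floors gave 290.5 and 460.4. Sin3a, with 149 and 264.5, was below the floor on replicate 1. Of 3 acetyltransferase genes, Kat2a was above it, with 206 and 168. Ubiquitin ligase genes that act on the family were above it in 3 of 5 cases. Fbxw7 gave 239 and 225, Siah1a gave 321 and 147, and Wwp1, a ligase of Klf2, gave 256 and 118, so that 2 of the 3 were past 2-fold in favour of replicate 1 as deposited, 1 with quantile normalization and 0 with median centring.

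A list of homing genes, several of which depend on Klf2 in lymphocytes, also held the B cell subset markers Cr2 and Fcer2a, and 9 of its 13 measured genes cleared both floors. S1pr1, the egress receptor that Klf2 drives, gave 571 on replicate 1 and 103 on replicate 2. Ccr7 gave 839 and 152.5, and Cxcr4 gave 1332 and 265. These 3 were between 5.03-fold and 5.55-fold higher on replicate 1. A link of the signals of this list to that of Klf2 was not tested. Ccr6 (854 and 2870), the complement receptor gene Cr2 (940.3 and 2275) and Cxcr5 (647 and 1376) were over 2-fold higher on replicate 2. Itgb7, an integrin chain, gave 548 and 578.5, and Fcer2a, the low-affinity IgE receptor of follicular cells, 1081 and 978. Each of the 6 that differed was measured by 1 probe set. With quantile normalization replicate 1 was past 2-fold for 3 and replicate 2 for 1. The median difference of the 9 was 0.08.

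Among 13 measured quiescence genes, 8 cleared both floors by some probe set and 7 by the brightest. The antiproliferative Btg1 gave 2351 and 3096, and the forkhead factors Foxo1 and Foxp1 gave 1032 and 1368, and 901 and 1530, each by its brightest probe set. Some other probe sets of these genes that cleared both floors went past 2-fold. The other of Btg1 gave 988.0 and 3256.5, and 1 of Foxo1 gave 669 and 1358. Those of Foxp1 opposed each other, with 517.0 and 2242 by 1 and 377.5 and 130.4 by another. Tsc22d3, which glucocorticoid induces, was 4.38-fold higher on replicate 1, with 1132 and 258. Tsc1, an inhibitor of the mTOR pathway, gave 258 and 116. Btg2 gave 721 and 152, or 4.73-fold, but its other probe set gave 233 and 338. By the brightest probe sets 3 genes were past 2-fold in favour of replicate 1 and 0 in favour of replicate 2, with a median of -0.02. Median centring gave 2 and 3 with a median of 0.62, and quantile normalization 2 and 0 with a median of -0.27.

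Immediate early genes, which cells transcribe within minutes of a stimulus, lay at the same end as Klf4 and Klf6. Of 17 measured genes 11 cleared both floors, where 28.4% of all genes did. Of the 11, 10 showed an excess past 2-fold in replicate 1 and 1, Mcl1, in replicate 2. Among all genes above both floors, 14.5% and 14.1% did. Like the other lists, this one was chosen with earlier results of these arrays known, so nothing is read from these shares. The 10 were Fos, Jun, Junb, Jund, Egr1, Ier2, Nr4a1, Dusp1, Zfp36 and Btg2. The other probe set of Btg2 went the other way, with 233 and 338. The folds of the 10 ran from 2.06 for Jund to 29.4 for Nr4a1, so that the folds of Klf4 and Klf6, 11.5 and 9.45, fall inside that range. On replicate 2 Dusp1, Junb, Nr4a1 and Jun read from 118 to 136, near the floor of 86.6, so the size of their folds is uncertain. The median difference of the 11 was -2.83, and it was -3.13 with quantile normalization and -2.20 with median centring. Median centring left 8 of the 10 over 2-fold higher on replicate 1. Dusp1 stands both in this list and among the genes most like Klf4 and Klf6.

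**Figure D5:**
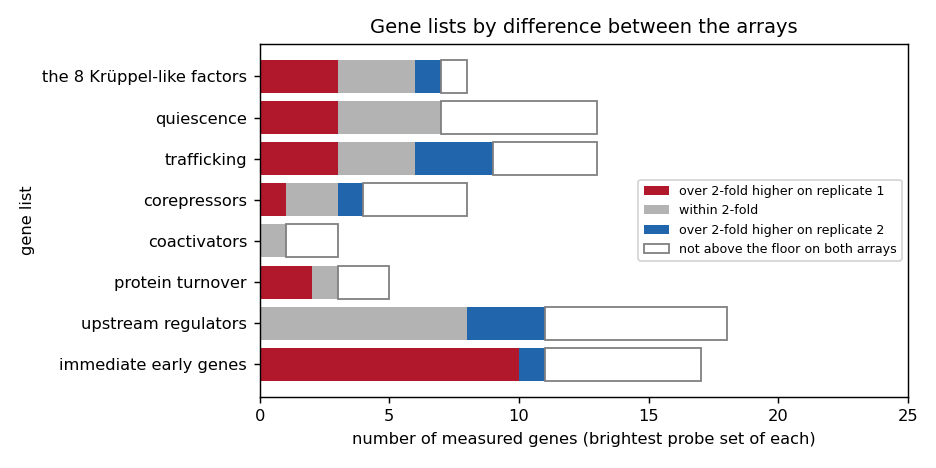
Number of measured genes (horizontal axis) in the 8 Krüppel-like factors and in 7 other gene lists, split by the brightest probe set of each gene into over 2-fold higher on replicate 1, within 2-fold, over 2-fold higher on replicate 2, and not above the floor on both arrays. Immediate early genes have 10 of 11 on the replicate 1 side, and the upstream regulators have 0 there and 3 on the replicate 2 side.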

How the data were processed

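RNA from each of the 2 wild-type samples was hybridized to 1 array with a biotin label, per the labels. The deposited table holds linear signal intensities made by the authors with the MAS5 algorithm, per the submitters' processing notes; version and settings are not given in the sources used here. MAS5 summarises each probe set as 1 value and rescales each array by a single factor, and trimmed means (2% at each end) of 150.0 and 150.1 show that both arrays were brought to the same target. A larger factor also raises the background of an array. Detection calls were not used, and 2 arrays limit the precision.

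Of 22690 probe sets 64 were controls, and 20380 of the other 22626 named 1 gene (691 gave more than 1 symbol and 1555 had no name in the annotation used here). All 8 member symbols matched RefSeq (GRCm38.p6) by Entrez identifier. Replicates are numbered in accession order. The probe set of a gene with the highest mean log2 signal stood for the gene, and differences are replicate 2 minus replicate 1 on the log2 scale. The members and the 21 gene lists were chosen with earlier results of these data known, and the motifs after the signals were seen. Named genes are all members, the rest of the family, up to 4 genes of highest signal in each pathway list and those past 2-fold, of genes that cleared both floors. Itgb7, Sin3a, Map2k5, Mapk7, Srf, Cd79a, Pax5 and the sex-linked genes were named after their values were seen. Of 6 plasma cell genes, 2 cleared both floors. The alternatives were other floors, 2 scalings, a pseudocount of 32, other ways to combine probe sets, and leaving out either replicate. Python 3.11.15 was used with numpy 2.4.6, pandas 2.3.3 and scipy 1.17.1, and the scripts were tested on simulated data.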

Additional observations from a re-analysis of the deposited data

How the results depend on the processing

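The number of members that cleared the floor was 6 or 7 under the stricter floor, a floor at the array median, both scalings and without probe sets ending in _x_at, and 7 without either replicate. It was 4 with the mean over all probe sets of a gene. Replicate 1 was past 2-fold for 3 members as reported and for 1 with the stricter floor, which removes Klf4 and the brightest Klf6 probe set, and for 2 to 4 under the other alternatives. Replicate 2 was past 2-fold for 1 member, and for 0 with quantile normalization, with log2(signal + 32) and with the mean over probe sets. The median member difference of -0.69 became 0.094 with the stricter floor and -1.81 with the mean over probe sets, with fewer members entering it; under the other alternatives it ran from -1.07 to -0.059. Averaging only the probe sets that cleared both floors, an alternative added after seeing the data, gave 0.21 for Klf3 and -0.80 for Klf9, against -0.69 and 0.094. No paired analysis was possible because both samples belong to 1 group. Signals near the floor limit the folds of Klf4 and Klf6.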

Other observations

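The hybridization controls, bacterial and phage transcripts added to each sample at fixed amounts, were higher on replicate 1 in 18 of 18 probe sets. The ratio of replicate 1 to replicate 2 ran from 3.39 to 13.2, with a median of 5.17, and the brightest cre control gave 42172 and 9756. The values are those after the scaling of each array, and the median signal of all gene probe sets was 103 and 66.6. For the 3462 genes that cleared both floors, the median log2 difference, replicate 2 minus replicate 1, was -0.02. The part of the control difference in the signals and folds of the members was not tested.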
